A study of Mus musculus with 69 samples.

Results

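The eicosanoid synthesis enzymes examined here were Ptgs1, Ptgs2, Ptges, Ptgis, Hpgd, Alox5, Alox5ap, Alox15 and Ltc4s, which are 9 of the 17628 genes measured in these lungs. They were chosen by name, and their probes were those whose transcript identifier in the scanner output belonged to one of the 9 symbols. This gave 13 of the 27479 probes that could be matched to a symbol, with 3 probes for Alox5, 2 each for Ptgs2 and Hpgd, and 1 for each of the other 6 genes. The lungs came from 69 female C57BL/6 mice, obtained at 5 to 7 weeks of age and acclimatised for 1 to 3 weeks, each of which received a single intratracheal instillation. NRCWE-001 is an unmodified titanium dioxide (TiO2) nanoparticle and NRCWE-002 is its positively charged counterpart. Either was given at 18, 54 or 162 µg per mouse, and lungs were taken 24 h later (day 1) or after 28 days. The carrier was water with 2% serum, which the sample titles give as H2O, and the vehicle mice received it alone, so every mouse had been anaesthetised and instilled. Each particle, dose and day had 5 mice, the vehicle had 5 on day 1 and 4 on day 28, and every mouse had its own 2-colour array. Lung RNA carried Cy5 and a commercial mouse reference RNA carried Cy3, so each value is a log2 ratio of lung to reference. No dyes were swapped, which leaves the size of a ratio open to dye bias, and only differences between groups for the same gene are compared.

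Eicosanoids are lipid signals made from arachidonic acid that phospholipases release from membranes. The cyclooxygenases, encoded by Ptgs1 and Ptgs2, turn it into prostaglandin H2, which Ptges converts to prostaglandin E2 and Ptgis to prostacyclin, while Hpgd starts the breakdown of prostaglandins. In the other branch, 5-lipoxygenase (Alox5) works with its partner protein Alox5ap to make leukotrienes, Ltc4s attaches glutathione to form the cysteinyl leukotrienes, and Alox15 makes other hydroxylated fatty acids. In the lung these products are known for setting vascular and airway tone and for drawing in leukocytes.

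Every member was above background in the sample channel on 68 or 69 of the 69 arrays, except Alox15, which was above it on 45. In the reference channel Alox15 was above background on 9 arrays, and 1 Hpgd probe and 1 Alox5 probe on 27 and 37, so for these the ratio rests on a dim reference spot. Probes of the same gene moved together over the 69 arrays, with a Pearson correlation of 0.85 to 0.91 for Alox5, 0.91 for Ptgs2 and 0.81 for Hpgd. The arrays lay on 18 slides scanned on 12 days, and 61.4% to 87.8% of spots were above background in the sample channel. The lung markers for alveolar type 2 cells were all measured (5 of 5), with a mean log2 ratio of 4.76 on the vehicle arrays of day 1. The arrays that correlated least with the others (median r of 0.85 to 0.90, against up to 0.97) were replicate 2 of each NRCWE-002 dose on day 28, which share slide 4, and replicate 2 of NRCWE-001 18 µg on day 1. Whole-lung RNA was measured, so fewer cells of a type and less RNA per cell cannot be told apart in any of the results.

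The stretches in front of 4 genes are shown because 3 of them, Ptgs1, Ptges and Ltc4s, were called at 162 µg on day 1 and Ptgs2, the other cyclooxygenase, was not. Each is the 250 bases before a transcript start in the RefSeq table, read 5′ to 3′ on its strand, on build GRCm38.p6. For Ptgs2 and Ltc4s this is the outer end of the gene, while for Ptgs1 and Ptges it lies 13684 and 27723 bases inside the annotated span, which begins further upstream. Both strands were searched for the GC box (GGGCGG), the CCAAT box (CCAAT), the TATA box (TATAAA), the AP-1 motif (TGANTCA), the C/EBP motif (TTGCGCAA) and the NF-kB motif, none of which contains another, and matches are in capitals.
Ptgs1, chr2:36230176-36230425, plus strand: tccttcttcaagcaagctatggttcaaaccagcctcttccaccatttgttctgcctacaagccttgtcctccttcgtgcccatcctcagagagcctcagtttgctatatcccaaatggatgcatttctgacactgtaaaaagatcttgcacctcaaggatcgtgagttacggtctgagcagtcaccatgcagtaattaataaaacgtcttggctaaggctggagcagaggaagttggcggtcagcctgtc
Ptgs2, chr1:150099781-150100030, plus strand: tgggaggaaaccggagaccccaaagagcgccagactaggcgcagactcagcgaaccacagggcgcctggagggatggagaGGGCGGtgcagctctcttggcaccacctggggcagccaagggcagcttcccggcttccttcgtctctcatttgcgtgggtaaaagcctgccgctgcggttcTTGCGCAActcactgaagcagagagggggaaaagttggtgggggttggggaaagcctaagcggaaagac
Ptges, chr2:30903298-30903547, minus strand: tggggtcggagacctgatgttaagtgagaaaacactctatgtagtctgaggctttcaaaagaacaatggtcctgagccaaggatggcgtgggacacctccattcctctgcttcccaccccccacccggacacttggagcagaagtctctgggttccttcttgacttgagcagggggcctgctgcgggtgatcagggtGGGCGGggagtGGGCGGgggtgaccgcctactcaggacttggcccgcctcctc
Ltc4s, chr11:50238533-50238782, minus strand: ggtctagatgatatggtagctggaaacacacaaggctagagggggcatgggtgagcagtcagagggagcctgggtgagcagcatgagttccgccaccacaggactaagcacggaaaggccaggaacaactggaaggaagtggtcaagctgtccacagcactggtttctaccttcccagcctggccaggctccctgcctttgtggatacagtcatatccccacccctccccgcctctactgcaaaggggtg
The Ptges window held 2 GC boxes, beginning 53 and 42 bases before that transcript start, and the Ptgs2 window held a GC box and a C/EBP sequence, beginning 170 and 69 bases before it. None of the 6 motifs was found in the Ptgs1 and Ltc4s windows, which says only that these letters are not there. Among 32851 windows of this length, 32.7% held the GC box, 33.8% the CCAAT box, 12.4% the TATA box, 6.75% the AP-1 motif, 1.41% the NF-kB motif and 0.164% the C/EBP motif. The share of G and C was 61.6% in the window of Ptgs2, 59.6% in that of Ptges, 57.6% in that of Ltc4s and 48% in that of Ptgs1.

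In the comparisons of a dose with the vehicle, 3 of the 9 genes passed the test, all at 162 µg on day 1. Ptges rose with both particles, Ptgs1 rose with NRCWE-002, and Ltc4s fell with NRCWE-001. The other 6 genes passed no comparison of a dose with the vehicle. All tests named are limma tests with Benjamini-Hochberg adjustment over all 17628 genes, called at an adjusted p below 0.05, and the comparisons of one day share its vehicle arrays. At 162 µg on day 1, 2 of 9 members were called for NRCWE-001 against 0.579% of all genes, and 2 of 9 for NRCWE-002 against 0.596%. Over the 9 members the median difference was 0.00 with NRCWE-001 and 0.01 with NRCWE-002, beside 0.01 over all genes in both cases. In the F-test over the 3 doses, 2 members were called for NRCWE-001 on day 1 (0.698% of all genes) and 1 for NRCWE-002 on day 1 (0.823%). The members were chosen with earlier results of these data known, so these counts beside the shares of all genes do not test the set for an excess.

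**Figure D1:**
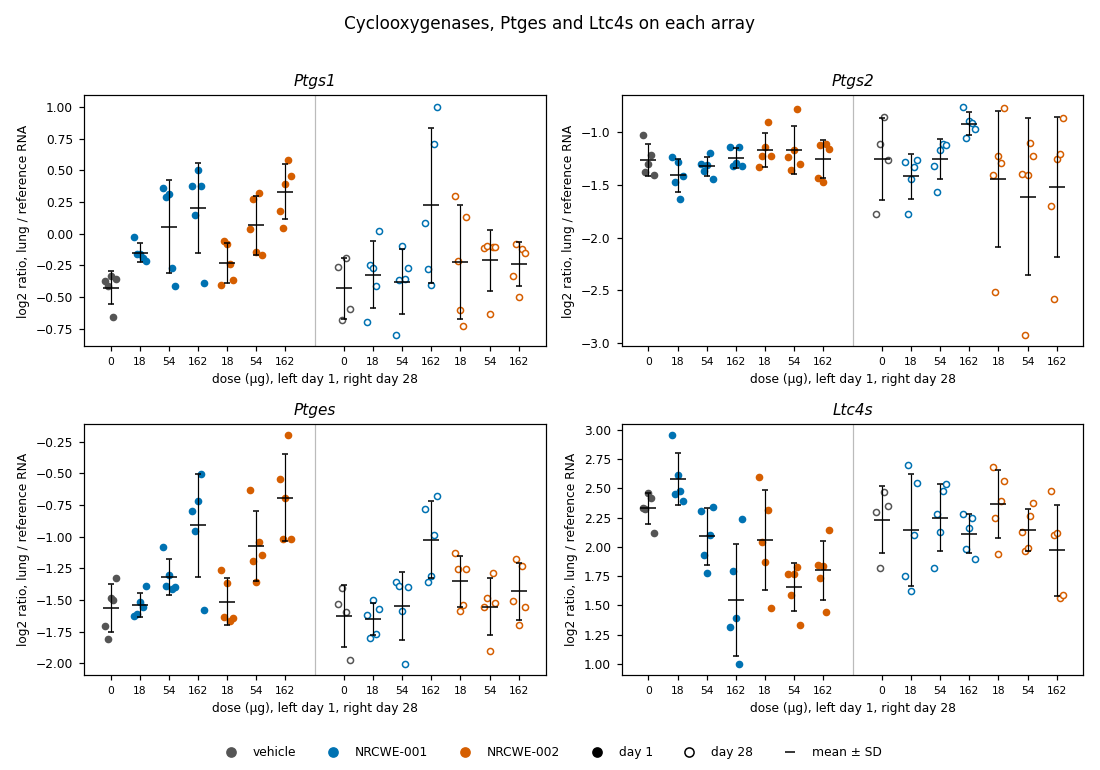
Log2 ratio of lung to reference RNA (y axis) for Ptgs1, Ptgs2, Ptges and Ltc4s on each of the 69 arrays, by dose in µg (x axis). Grey is vehicle, blue NRCWE-001 and orange NRCWE-002, filled points are day 1 and open points day 28, and bars are the mean and SD of 4 or 5 arrays. On day 1 Ptges and Ptgs1 sit higher and Ltc4s lower at 162 µg than in the vehicle group, while the Ptgs2 points of day 1 overlap at every dose.

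Ptges encodes the inducible enzyme that makes prostaglandin E2. Its log2 ratio on the vehicle arrays of day 1 was -1.71, -1.81, -1.49, -1.50 and -1.32. After 162 µg of NRCWE-002 it was -0.55, -1.02, -0.69, -0.20 and -1.02, so all 5 exposed arrays lay above all 5 vehicle arrays. In this comparison 4.9% of all genes had no overlap with the vehicle. Ptges rose by 0.87 (SE 0.15, n = 5 per group, limma adjusted p = 0.00204), a 1.83-fold change. After 162 µg of NRCWE-001 the values were -0.80, -0.96, -0.72, -0.51 and -1.58, and replicate 5 lay within the vehicle range. The rise there was 0.65 (SE 0.15, limma adjusted p = 0.0214), a 1.57-fold change. In the F-test over doses Ptges was called for both particles on day 1, with adjusted p-values of 0.0305 for NRCWE-001 and 0.000575 for NRCWE-002.

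The means of Ptges on day 1 followed the order vehicle (-1.57 ± 0.19, SD), NRCWE-001 18 µg (-1.54 ± 0.10), NRCWE-002 18 µg (-1.51 ± 0.19), NRCWE-001 54 µg (-1.32 ± 0.14), NRCWE-002 54 µg (-1.07 ± 0.27), NRCWE-001 162 µg (-0.91 ± 0.41) and NRCWE-002 162 µg (-0.69 ± 0.34). Neighbours in this order lay within the pooled SD of 0.25 of each other. At 54 µg the difference from the vehicle did not pass the test, at 0.25 for NRCWE-001 (adjusted p = 0.999) and 0.49 for NRCWE-002 (adjusted p = 0.372), and with slide as a block the latter was 0.53 (adjusted p = 0.0364). At 18 µg it was 0.02 and 0.05. The call at 162 µg of NRCWE-002 held when each of the 10 arrays compared was left out in turn (0.75 to 0.95, adjusted p at most 0.0197). For NRCWE-001 it held in 5 of the 10 leave-outs and was lost without vehicle replicate 1 or 2 or without exposed replicate 1, 3 or 4 (0.55 to 0.62, adjusted p 0.0754 to 0.231), and with median centring in place of loess (0.78, adjusted p = 0.056). On the slides that held both groups the difference was 0.77 to 0.91 for NRCWE-001 (3 slides) and 0.63 to 0.95 for NRCWE-002 (2 slides).

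Ptgs1 encodes the cyclooxygenase usually described as constitutive, and Ptgs2 the one usually described as inducible. Ptgs1 on the vehicle arrays of day 1 was -0.37, -0.41, -0.34, -0.66 and -0.36. After 162 µg of NRCWE-002 it was 0.18, 0.04, 0.39, 0.58 and 0.46, with no overlap with the vehicle, as was so for 4.9% of all genes. Ptgs1 rose there by 0.76 (SE 0.19, n = 5 per group, limma adjusted p = 0.0352), a 1.69-fold change. In the F-test over doses Ptgs1 was not called, with adjusted p-values of 0.0797 for NRCWE-002 and 0.32 for NRCWE-001 on day 1 and 0.175 for NRCWE-001 on day 28. The call at 162 µg was lost when any one of the 10 arrays was left out (0.69 to 0.83, adjusted p 0.0504 to 0.145). It was also lost in the authors' deposited log2 ratios (0.72, adjusted p = 0.0501) and with slide as a fixed block (0.62, adjusted p = 0.0582). With slide as a random block the call held. On the 2 slides that held both groups the difference was 0.75 and 0.83.

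With NRCWE-001 the values of Ptgs1 at 162 µg were 0.38, 0.15, 0.50, 0.37 and -0.39, and 4 of 5 lay above every vehicle array. The difference was 0.63 (SE 0.19, limma adjusted p = 0.129) and did not pass the test. It passed with slide as a block (0.68, adjusted p = 0.00745) and without replicate 5 (0.78, adjusted p = 0.0146). The means on day 1 ran from -0.43 ± 0.13 (SD) in the vehicle group through -0.15 ± 0.07, 0.05 ± 0.37 and 0.20 ± 0.35 at 18, 54 and 162 µg of NRCWE-001. For NRCWE-002 they were -0.23 ± 0.16, 0.06 ± 0.23 and 0.33 ± 0.22. Neighbours in the order of these 7 means lay within the pooled SD of 0.30 of each other. Groups without overlap were also seen at 54 µg of NRCWE-002 (0.04, 0.27, -0.14, 0.32 and -0.17) and at 18 µg of NRCWE-001 (-0.03, -0.16, -0.16, -0.19 and -0.22), with differences of 0.49 (adjusted p = 0.65) and 0.28 (adjusted p = 1). With slide as a block the former was 0.64 (adjusted p = 0.0348). Of all genes, 2.94% and 1.42% had no overlap with the vehicle in these comparisons.

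Ptgs2 was called in no comparison. It was called, with slide as a fixed block, in the F-test over doses of NRCWE-001 on day 28 (adjusted p = 0.00676, against 0.82 without the block). With scan day as a fixed block it was called there too (limma F-test, adjusted p = 0.0153), and with slide as a random block it was not. After 162 µg of NRCWE-001 on day 28 its mean was -0.92 (-1.05 to -0.76), against -1.25 (-1.78 to -0.86) in the vehicle group. That difference was 0.33 (limma adjusted p = 0.759). On the vehicle arrays of day 1 Ptgs2 was -1.03, -1.38, -1.30, -1.22 and -1.41. At 162 µg on day 1 it was -1.14, -1.32, -1.30, -1.14 and -1.32 with NRCWE-001 and -1.44, -1.12, -1.47, -1.11 and -1.16 with NRCWE-002. These 3 groups of day 1 overlapped throughout. The differences were 0.02 (95% confidence interval -0.43 to 0.47) and 0.01 (-0.44 to 0.45). With 5 arrays per group, differences inside these intervals could not be told from 0.

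Ltc4s, the enzyme that commits leukotriene A4 to the cysteinyl leukotrienes, moved the other way. Its log2 ratio on the vehicle arrays of day 1 was 2.33, 2.33, 2.46, 2.41 and 2.12. After 162 µg of NRCWE-001 it was 1.32, 1.79, 1.39, 1.00 and 2.24, and all but replicate 5 lay below the vehicle. Ltc4s fell by 0.78 on the log2 scale (SE 0.19, n = 5 per group, limma adjusted p = 0.0308), a fold of 0.581, and the F-test over doses gave an adjusted p of 0.00733. The call held in 3 of 10 leave-outs and was lost without any one of vehicle replicates 1 to 4 (-0.78 to -0.75, adjusted p 0.0753 to 0.099) or of exposed replicates 1, 3 and 4 (-0.74 to -0.65, adjusted p 0.131 to 0.319). It was also lost with the processed signals of the scanner software (-0.97, adjusted p = 0.144) and with median centring (-0.74, adjusted p = 0.121). On the 3 slides with both groups the difference was -1.07 to -0.54.

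With NRCWE-002, Ltc4s was 1.77, 1.59, 1.77, 1.83 and 1.33 at 54 µg, with no overlap with the vehicle, and 1.84, 1.73, 1.84, 1.44 and 2.15 at 162 µg, with 4 of 5 arrays below it. Neither difference passed the test, at -0.67 (SE 0.19, adjusted p = 0.257) and -0.53 (SE 0.19, adjusted p = 0.252). With slide as a block the difference at 54 µg was -0.76 (adjusted p = 0.0289). The means on day 1 ran from 2.58 ± 0.22 (SD) at 18 µg of NRCWE-001 and 2.33 ± 0.13 in the vehicle group to 1.66 ± 0.20 at 54 µg of NRCWE-002 and 1.55 ± 0.48 at 162 µg of NRCWE-001. Neighbours among the 7 means lay within the pooled SD of 0.31 of each other.

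Exposed arrays were not alike in these genes, and some lay within the vehicle range. Lcn2, which encodes a siderophore-binding protein made in inflammation, was 0.87 to 1.28 on the vehicle arrays of day 1 and 1.23 to 1.49 on those of day 28. It was 0.96 on replicate 5 of NRCWE-001 162 µg on day 1, against 4.36 to 4.79 on the other 4 arrays of that group. In the group given 54 µg of NRCWE-001, replicates 4 and 5 of day 1 had Lcn2 at 0.88 and 1.18, where Ptgs1 was -0.27 and -0.42. On day 28, replicates 2 and 3 of the group given 162 µg of NRCWE-001 had Lcn2 at 0.99 and 1.29, and leaving out either one gave a call for Ptges there. NRCWE-002 had such arrays too. At 162 µg on day 28 its replicates 1 and 3 had Lcn2 at 1.47 and 1.22, against 3.83, 3.88 and 3.42 on the others. These arrays were picked out after their values were seen and were kept in all values above. Without replicate 5 of NRCWE-001 162 µg on day 1, the differences were 0.82 for Ptges (adjusted p = 0.000417), 0.78 for Ptgs1 (adjusted p = 0.0146) and -0.96 for Ltc4s (adjusted p = 0.00175). Leaving out an array that lies toward the vehicle enlarges a difference in advance, so these p-values add no support. Lcn2 was also the gene most like Ptgs1 over these same arrays (r = 0.79), so it does not mark them independently.

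**Figure D2:**
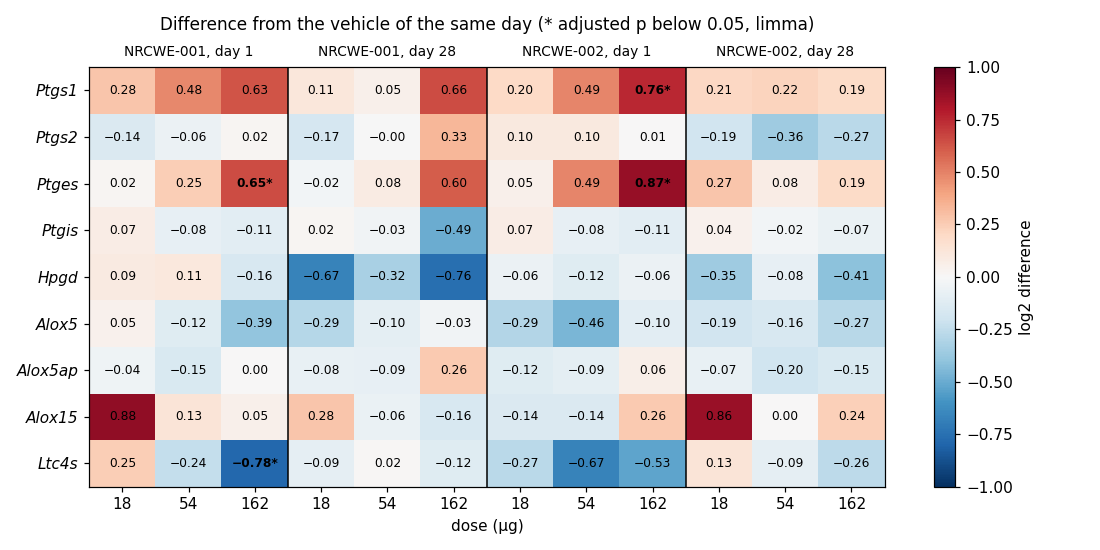
Log2 difference of each group from the vehicle group of the same day (colour and printed value), for the 9 genes (rows) and the 3 doses in µg of each particle and day (columns). An asterisk marks an adjusted p below 0.05, which Ptges has in 2 cells at 162 µg on day 1, and Ptgs1 and Ltc4s in 1 each.

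On day 28 no member was called against the vehicle at any dose. After 162 µg of NRCWE-001 Ptges was -0.79, -1.36, -1.31, -0.99 and -0.68, against -1.53, -1.40, -1.60 and -1.98 in the vehicle group. These groups did not overlap, as was so for 2.25% of all genes. The difference was 0.60 (SE 0.16, n = 5 and 4, limma adjusted p = 0.15). Without replicate 2 it was 0.69 (adjusted p = 0.0417), without replicate 3 it was 0.67 (adjusted p = 0.0448), and with slide as a block it was 0.52 (adjusted p = 0.968). Only 1 slide held both groups, where it was 0.62. The F-test over doses gave an adjusted p of 0.0549, and 0.0101 with slide as a block, and it passed under 8 of the 12 alternatives. After 162 µg of NRCWE-002 Ptges was -1.51, -1.18, -1.70, -1.23 and -1.55, a difference of 0.19 that overlapped the vehicle.

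Ptgs1 on day 28 was spread widely after 162 µg of NRCWE-001, at 0.09, -0.28, -0.40, 0.71 and 1.00 against -0.27, -0.68, -0.19 and -0.60 in the vehicle group. The difference of 0.66 (SE 0.20, adjusted p = 0.223) did not pass the test, and without replicate 3 it was 0.81 (adjusted p = 0.0403). Ltc4s overlapped the vehicle at every dose on day 28 (2.28, 1.98, 2.16, 2.24 and 1.90 at 162 µg of NRCWE-001, against 2.30, 1.82, 2.47 and 2.35). Of all genes, 0.0454% were called at 162 µg of NRCWE-001 on day 28 and 0.00567% at 162 µg of NRCWE-002.

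Whether the effect of 162 µg differed between the days was tested directly, and no member passed. For NRCWE-001 the difference from vehicle on day 28 minus that on day 1 was 0.66 for Ltc4s (SE 0.28, limma adjusted p = 1) and -0.05 for Ptges (SE 0.22, adjusted p = 1). For NRCWE-002 it was -0.68 for Ptges (SE 0.22, adjusted p = 0.528) and -0.56 for Ptgs1 (SE 0.27, adjusted p = 0.715). Of all genes, 0% were called in either test. Over all 7 groups of each day, Ptges was lower on day 28 than on day 1 by 0.22 (SE 0.06, adjusted p = 0.00754), where 10.6% of all genes were called. Most slides held arrays of a single day, and no slide held vehicle arrays of both days, so day and slide can hardly be told apart. With slide as a block this difference of Ptges was -0.18 (adjusted p = 0.645). In the vehicle groups alone 0% of genes were called between the days, and Ptges differed by -0.06.

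The prostaglandin enzymes downstream of prostaglandin H2 other than Ptges were called at no dose. Ptgis, the prostacyclin synthase of vessel walls, was 0.45, 0.48, 0.46, 0.19 and 0.27 after 162 µg of NRCWE-001 on day 28, below all 4 vehicle arrays (0.90, 0.69, 1.08 and 0.77). The difference was -0.49 (SE 0.17, limma adjusted p = 0.299). On day 1 its differences from the vehicle lay between -0.11 and 0.07. Of all genes, 2.25% had no overlap with the vehicle in the comparison of 162 µg of NRCWE-001 on day 28, where 2 members had none, Ptges and Ptgis. At 162 µg of NRCWE-002 on day 1 the share was 4.9%, with 2 members (Ptgs1 and Ptges), and at 162 µg of NRCWE-001 it was 3.4%, with 0 members.

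Hpgd, which inactivates prostaglandins and is abundant in lung, was 4.74, 4.96, 4.91, 4.95 and 4.80 on the vehicle arrays of day 1 and 5.80, 4.99, 5.52 and 5.38 on those of day 28. These did not overlap, as was so for 3.64% of all genes, and the difference was 0.55 (SE 0.24, adjusted p = 0.837). Against the day 28 vehicle it was lower by 0.67, 0.32 and 0.76 after 18, 54 and 162 µg of NRCWE-001, but the adjusted p-values were 0.347, 1 and 0.252. At 162 µg the arrays read 4.29, 4.50, 5.24, 4.86 and 4.42, which spans the level of the vehicle on day 1. Hpgd followed the mean of 5 endothelial markers over the 69 arrays (r = 0.82). That mean was 4.68 in the vehicle group of day 28 and 4.18 after 162 µg of NRCWE-001, with array ranges of 4.28 to 4.92 and 3.84 to 4.57, and its part in the difference was not tested.

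In the leukotriene branch above Ltc4s, neither 5-lipoxygenase nor its partner was called. Alox5 after 162 µg of NRCWE-001 on day 1 was 2.05, 1.88, 2.08, 1.79 and 2.16, against 2.20, 2.14, 2.72, 2.68 and 2.20 in the vehicle group, and 4 of 5 arrays lay below every vehicle array. The difference was -0.39 (95% confidence interval -0.80 to 0.01, limma adjusted p = 0.714). The largest difference of Alox5 on day 1 was -0.46, at 54 µg of NRCWE-002 (adjusted p = 0.783). Alox5ap stayed between 0.01 and 0.91 on all arrays of day 1, and its differences from the vehicle at 162 µg were 0.00 and 0.06. On day 28 1 exposed array, replicate 1 of NRCWE-001 162 µg, reached 1.51, and replicate 2 of the vehicle group was at 1.08. Both lay on slide 6, where replicate 1 of NRCWE-001 54 µg and of NRCWE-001 18 µg read 0.70 and 0.58.

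Alox15 was high on a few single arrays. Its values on the vehicle arrays were -0.13 to 0.68 on day 1 and 0.21 to 0.35 on day 28. After 18 µg of NRCWE-001 on day 1 it was 3.12, 0.90, 0.54, 0.16 and 1.02, and after 18 µg of NRCWE-002 on day 28 it was 2.11, 1.40, 0.15, 1.88 and 0.17. The differences of 0.88 (SE 0.29, limma adjusted p = 0.868) and 0.86 (SE 0.31, adjusted p = 0.72) did not pass the test. The genes whose values were most like those of Alox15 over the 69 arrays were Prg4 (r = 0.94), Cd5l (r = 0.94) and Padi4 (r = 0.87). It also followed the mean of 6 mast cell and basophil markers (r = 0.71). Prg4 encodes lubricin, a lubricating glycoprotein of serous and joint surfaces, and Cd5l encodes a protein secreted by tissue macrophages. The array with Alox15 at 3.12 had Prg4 at 5.09 and Cd5l at 4.92, and the 3 high arrays of NRCWE-002 18 µg on day 28 had Cd5l at 4.43, 3.03 and 3.13. Of all genes, 0% were called at 18 µg on day 1 for either particle and at 18 µg of NRCWE-002 on day 28.

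**Figure D3:**
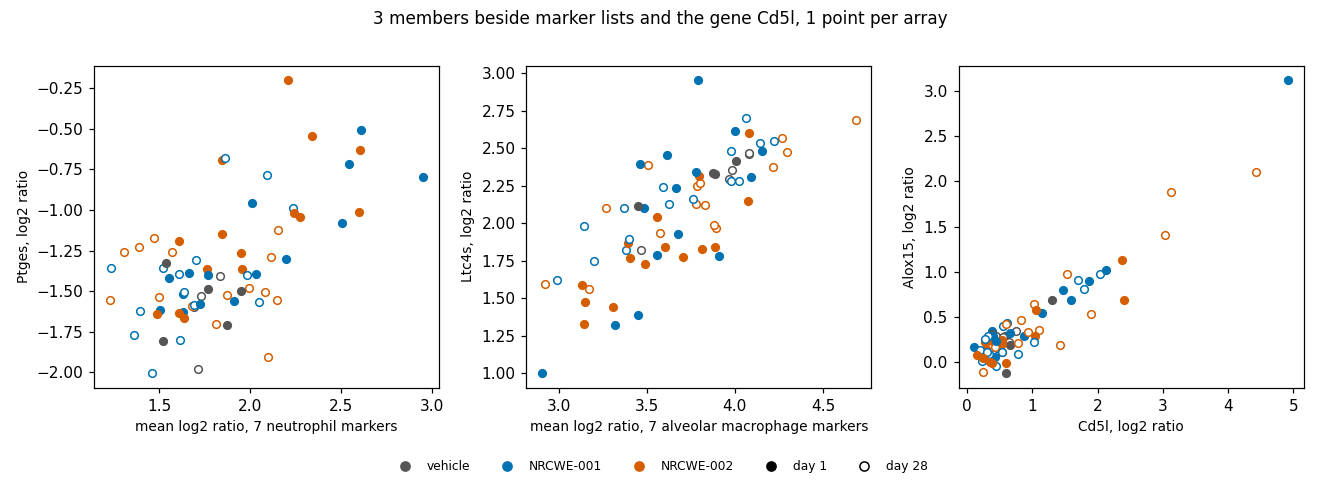
Ptges beside the mean of 7 neutrophil markers, Ltc4s beside the mean of 7 alveolar macrophage markers, and Alox15 beside Cd5l, all as log2 ratios of lung to reference RNA with 1 point per array (n = 69). Colours and fills are vehicle in grey, NRCWE-001 in blue and NRCWE-002 in orange, with day 1 filled and day 28 open. Ltc4s is low where the macrophage mean is low (r = 0.77), and 4 arrays set the upper part of the Alox15 panel.

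Marker means of several leukocytes also shifted at 162 µg on day 1, where Ptges, Ptgs1 and Ltc4s were called, while few single markers passed the test. On day 1 the mean over the 7 neutrophil markers measured (of 8, Ly6g was not measured) was 1.73 in the vehicle group (1.52 to 1.95), 2.37 after 162 µg of NRCWE-001 (1.72 to 2.95) and 2.25 after 162 µg of NRCWE-002 (1.84 to 2.60). All 7 had a positive difference with either particle. Csf3r and Cxcr2 were called with NRCWE-001, and 0 of 7 were called with NRCWE-002. The mean over 6 markers of monocytes and recruited macrophages was 0.43 (0.33 to 0.51), 0.92 (0.35 to 1.40) and 0.88 (0.61 to 1.05), with 6 of 6 differences positive and Cd14 called with both particles. Over the 69 arrays Ptges correlated with the neutrophil mean at r = 0.60 and with the monocyte mean at r = 0.65, and Ptgs1 at r = 0.54 and 0.63. These are descriptions over arrays that share doses, days and slides, and the part of these cells in the results was not tested.

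The mean over the 7 alveolar macrophage markers measured (of 8, Ear2 was not measured) was 3.86 in the vehicle group of day 1 (3.45 to 4.08), 3.38 after 162 µg of NRCWE-001 (2.91 to 3.66) and 3.67 after 162 µg of NRCWE-002 (3.31 to 4.08). Ear1 and Siglecf were called lower with NRCWE-001, and 5 of 7 differences were negative. With NRCWE-002, 0 of 7 were called and 3 of 7 differences were positive. Siglecf is also among the 5 eosinophil markers, whose mean was 0.51 (0.33 to 0.64), 0.27 (0.21 to 0.39) and 0.34 (0.29 to 0.44). Ltc4s correlated with the macrophage mean at r = 0.77 and with the eosinophil mean at r = 0.72, and Alox5 with the macrophage mean at r = 0.77. The part of these cells in the difference of Ltc4s was not tested.

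The genes most like each changed member over the 69 arrays were found by their Pearson correlation. For Ptges they were Noxo1 (r = 0.82), Sod2 (r = 0.82) and Timp1 (r = 0.81), and for Ptgs1 they were Lcn2 (r = 0.79), Noxo1 (r = 0.78) and Ccl3 (r = 0.76). Noxo1 organises an NADPH oxidase, Sod2 is the mitochondrial superoxide dismutase, Timp1 inhibits metalloproteinases, and Lcn2 binds siderophores. At 162 µg on day 1 Timp1 was higher by 2.60 and 2.72, Lcn2 by 2.75 and 3.02, Noxo1 by 1.94 and 2.17 and Sod2 by 0.77 and 0.77 for NRCWE-001 and NRCWE-002, all called. For Ltc4s they were Rnase2a, Ear10 and Ear1 (r = 0.85, 0.85 and 0.84), ribonucleases of one family in which probes may share transcripts. Rnase2a fell by 1.30 with 162 µg of NRCWE-001 on day 1 (limma adjusted p = 0.0165), as did Ear1 (adjusted p = 0.0498). Ear10 was not called there (-0.98, adjusted p = 0.258). With 162 µg of NRCWE-002 on day 1 Rnase2a, Ear10 and Ear1 were not called (limma adjusted p = 0.208, 0.385 and 0.131). All these genes were picked by correlation over the same arrays, so their moving with the members was largely fixed in advance and adds no support. Among the members, Ptgs1 and Ptges had r = 0.72 and Alox5 and Ltc4s r = 0.69.

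For the remaining members the closest genes were Tns2, Ctdsp1 and Zcchc24 for Ptgis (r = 0.73 to 0.80), Adgrl4, Colgalt2 and Pllp for Hpgd (r = 0.86 each), Amz1, Fpr1 and Ms4a8a for Alox5 (r = 0.73 to 0.76), Tyrobp, Emp3 and Cd53 for Alox5ap (r = 0.68 to 0.80), and Cbwd1, Dusp19 and Mnd1 for Ptgs2 (r = 0.83 each). Slides held 75.4% of the spread of Ptgs2 within groups, against 19.7% for Alox15. Replicate 2 of each NRCWE-002 dose on day 28, all on slide 4, had the lowest Ptgs2 values of the 69 arrays, at -2.52, -2.92 and -2.58.

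**Figure D4:**
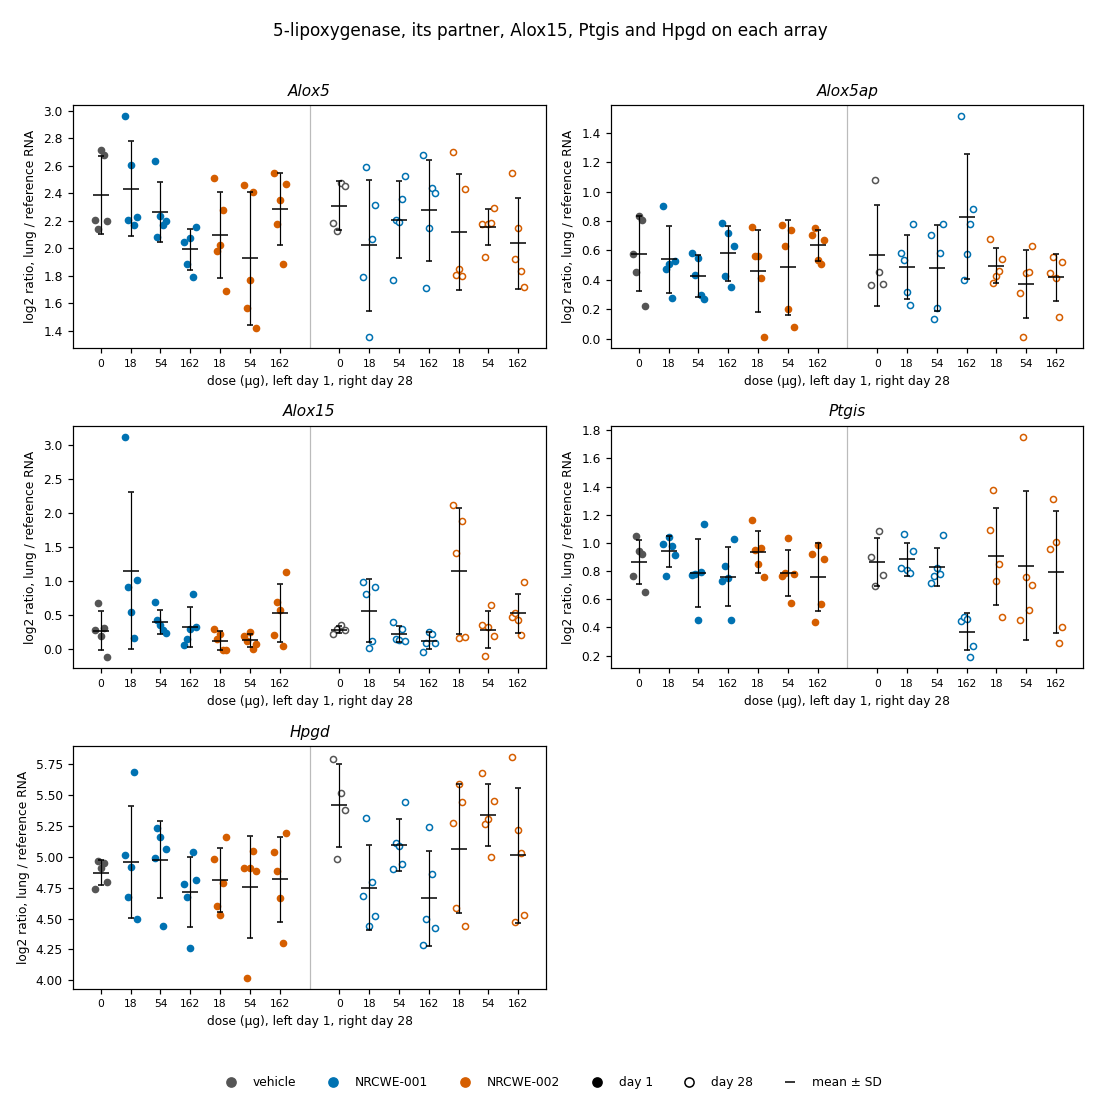
Log2 ratio of lung to reference RNA (y axis) for Alox5, Alox5ap, Alox15, Ptgis and Hpgd on each of the 69 arrays, by dose in µg (x axis). Grey is vehicle, blue NRCWE-001 and orange NRCWE-002, filled points are day 1 and open points day 28, and bars are the mean and SD of 4 or 5 arrays. Ptgis after 162 µg of NRCWE-001 on day 28 lies below the vehicle, and Alox15 reaches 3.12 on 1 array at 18 µg of NRCWE-001 on day 1.

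Positively charged and unmodified particles were compared at matched doses and days, as the mean over the 3 doses, and no member passed the test. The particles were not matched by slide. Every slide with a vehicle array held a single particle, and few slides held both particles on the same day. Particle and slide are therefore hard to tell apart in this comparison. Fitting slide as a fixed block cut the genes called between particles from 837 to 4 on day 28 and from 22 to 0 on day 1. No member passed in that fit either. On day 1, where 0.125% of all genes were called, the difference of NRCWE-002 from NRCWE-001 was 0.16 for Ptges (95% confidence interval -0.01 to 0.34, limma adjusted p = 0.731), 0.02 for Ptgs1 (-0.20 to 0.24) and -0.23 for Ltc4s (-0.45 to -0.01, adjusted p = 0.667). The interval of Alox15 also lay on one side of 0, at -0.36 (-0.70 to -0.03, adjusted p = 0.658). On day 28, where 4.75% of all genes were called, the difference was -0.33 for Ptgs2 (-0.58 to -0.07, adjusted p = 0.117), 0.30 for Hpgd (0.05 to 0.56, adjusted p = 0.149) and 0.35 for Alox15 (0.02 to 0.68, adjusted p = 0.202). The low Ptgs2 arrays of slide 4 are among those of NRCWE-002. Ltc4s was called at 162 µg with NRCWE-001 alone and Ptgs1 with NRCWE-002 alone, and a difference between the particles at that single dose was not tested. With slide as a fixed block Ptgs1 was called with NRCWE-001 (limma adjusted p = 0.00745) and not with NRCWE-002 (adjusted p = 0.0582). With slide as a random block Ptgs1 was called with both particles (adjusted p = 0.00392 for NRCWE-001). With array weights Ltc4s was called with NRCWE-002 too (adjusted p = 0.0157).

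In the remaining comparisons no member was called. The share of all genes called was 0% at 54 µg of NRCWE-001 on both days, 0.0624% at 54 µg of NRCWE-002 on day 1, 0.193% at 18 µg of NRCWE-001 on day 28 and 0% at 54 µg of NRCWE-002 on day 28. In the F-tests over doses on day 28 it was 0.477% for NRCWE-001 and 0% for NRCWE-002.

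The wider pathway was read from 56 other genes, of which 52 were measured (Cbr1, Ptger1, Ptgdr and Oxgr1 were not). They were 14 phospholipases, 11 further prostanoid enzymes and carriers, 14 further leukotriene and lipoxygenase enzymes and 13 receptors. In the F-tests and in the 12 comparisons of a dose with the vehicle, 0 of 52 were called. The share of all genes called in these tests was 0% to 0.823%, so this count does not set the 52 genes apart. At 162 µg on day 1 their median difference was 0.02 for both particles, beside 0.01 over all genes. The smallest p-value at that dose belonged with both particles to Cbr2, a lung carbonyl reductase, which was lower by 0.50 (SE 0.18, adjusted p = 0.313) and 0.53 (SE 0.18, adjusted p = 0.198). With NRCWE-001 the next were the phospholipase Pla2g1b at -0.45, the prostaglandin E2 receptor Ptger4 at 0.26 and Ptges3, the cytosolic prostaglandin E synthase, at 0.29. With NRCWE-002 they were the dipeptidase Dpep2 at -0.24, the prostacyclin receptor Ptgir at 0.22 and Ptges3 at 0.28. Of these named genes, Cbr2 (-0.50, limma adjusted p = 0.00471) and Pla2g1b (-0.40, adjusted p = 0.0493) passed with NRCWE-001 when slide was a fixed block. In that fit 772 of all 17628 genes were called. With NRCWE-002 Cbr2 did not pass there (-0.42, adjusted p = 0.0664).

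On day 28, 3 of the 52 (5.77%) differed between the particles, a share close to the 4.75% of all genes. NRCWE-002 had higher Alox12, the platelet-type 12-lipoxygenase (0.35, SE 0.09, adjusted p = 0.0232), and lower Abcc4, an exporter of prostaglandins (-0.12, SE 0.03, adjusted p = 0.0325), and Pla2g5, a secreted phospholipase (-0.29, SE 0.09, adjusted p = 0.0381). With slide as a block these were 0.09, -0.05 and -0.05, and none passed. Over all groups, 7 of the 52 (13.5%) differed between the days, close to the 10.6% of all genes, among them Ptgds (-0.19), Ephx1 (0.41), Cbr2 (0.29) and Abcc4 (-0.10), and none of these 4 passed with slide as a block. After 18 µg of NRCWE-001 on day 1, Pla2g4b and Aloxe3 were higher by 0.86 and 0.75 (adjusted p = 0.868 for both), with 2.67 and 3.17 on replicate 2, one of the 4 arrays that correlated least with the others.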

How the data were processed

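Lung RNA of 69 mice was measured on 2-colour mouse arrays, 1 mouse per array. Per the file headers, the authors read both channels with Agilent Feature Extraction 11.0.1.1 (annotation mm9), which gave the deposited intensity of each spot and of its local background. The authors also deposited a table of normalized log2 ratios, used here as an alternative. Its direction, lung over reference, was checked against the intensities of the same arrays (r = 0.987 to 0.995 per array), and its background correction is not given in the sources used here. Ratios made here without background correction lay closer to it (r = 0.994 to 0.999 per array). The alternative without background correction and the authors' table are therefore close to each other.

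Median intensities were corrected with normexp (offset 50, fitted without spots of outlying local background, more than 10 median absolute deviations away) and normalized by loess within arrays in limma 3.58.1 (R 4.3.3). The 1639 control spots of 45018 and outlier spots were left out. Probes were kept if 4 or more arrays had them well above background in the Cy5 channel. A gene was the median over its probes, named by transcript identifier through RefSeq. One limma fit of the 14 group means gave every contrast, with Benjamini-Hochberg adjustment over 17628 genes and a threshold of 0.05. The limma fit, and none of the steps before it, was tested on simulated log2 ratios whose spread was independent between arrays. The number of arrays limits the precision. Nothing in the labels ties arrays across groups, and mice are the replicates.

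All 9 members were named, with up to 4 other pathway genes of smallest p per comparison and the 3 genes most correlated with each member. Lists for neutrophils, monocytes, alveolar macrophages, eosinophils, mast cells and basophils, endothelium and alveolar type 2 cells were averaged. Members and lists were chosen with earlier results of these data known. Alternatives were the authors' log2 ratios, no background correction, the scanner's processed signals, median centring, no filter on dim probes, slide or scan day as a block, means over probes, array weights and leaving out each array. Slide was fitted as a fixed and as a random block, and values given with slide as a block are from the fixed block. A fit of normexp on all spots and a fit without the 4 arrays that correlated least were added after seeing the data. Columns of no sample numbered 0.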

Additional observations from a re-analysis of the deposited data

Results flagged for a closer look

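For each member and group the highest and lowest array was compared with the rest of its group, and 8 of 126 combinations had an array set apart by Dixon's test, where chance gives about 1 in 20. On day 1 these were Ptgs1 at -0.66 in vehicle replicate 4 (others -0.41 to -0.34), Alox5 at 2.64 in NRCWE-001 54 µg replicate 1 (others 2.08 to 2.23), Alox15 at 3.12 in NRCWE-001 18 µg replicate 1 (others 0.16 to 1.02) and Hpgd at 4.02 in NRCWE-002 54 µg replicate 2 (others 4.88 to 5.05). On day 28 they were Alox5ap at 1.08 in vehicle replicate 2 (others 0.36 to 0.45) and, in NRCWE-002 54 µg, Ptgs1 at -0.64 in replicate 3 (others -0.11 to -0.10), Ptgs2 at -2.92 in replicate 2 (others -1.41 to -1.10) and Ptgis at 1.76 in the same replicate 2 (others 0.45 to 0.76). That array lay on slide 4 and was among the 4 arrays that correlated least with the others.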

How the results depend on the processing

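Of 264 counts of members called under 12 alternatives, 229 stayed within 1.5 times the main count and 35 did not, and of 228 values of 19 differences of Ptgs1, Ptges and Ltc4s, 201 kept their side of the threshold, 15 gained a call and 12 lost it. Of all 108 differences of a member from the vehicle, 42 changed sign under at least 1 alternative, all of 0.32 or less in size, and 0 of the 4 called ones did. The call of Ptges at 162 µg of NRCWE-002 on day 1 held under all 12 (0.73 to 1.09), that for NRCWE-001 under 11, that of Ltc4s under 9 and that of Ptgs1 under 8. The main counts were 2 members in the NRCWE-001 dose test of day 1, 1 in that of NRCWE-002, 2 at 162 µg of either particle on day 1, 1 between the days over all groups and 0 elsewhere. With the authors' log2 ratios the NRCWE-001 dose test of day 28 had 1, NRCWE-002 162 µg on day 1 had 1 and the days 2. Without background correction the NRCWE-001 dose test of day 28 had 1. With processed signals both NRCWE-001 dose tests and NRCWE-001 162 µg on day 1 had 1 and the days 2. With median centring the NRCWE-001 dose test of day 1 had 1, 162 µg on day 1 had 0 for NRCWE-001 and 1 for NRCWE-002, the particles on day 28 had 3 (Ptgs1, Ptgs2 and Alox5ap) and the days 0. With slide as a fixed block the NRCWE-001 dose test of day 28 had 2, NRCWE-002 54 µg on day 1 had 3, NRCWE-002 162 µg on day 1 had 1 and the days 0. With slide as a random block the NRCWE-001 dose test of day 28, the NRCWE-002 dose test of day 1 and NRCWE-002 54 µg on day 1 had 3 each and the days 0. With scan day as a block the NRCWE-001 dose test of day 28 and the NRCWE-002 dose test of day 1 had 2 each and the days 0. With array weights the NRCWE-001 dose tests had 5 on day 1 and 4 on day 28, the NRCWE-002 dose test of day 1 had 3, NRCWE-001 162 µg on day 28 had 4, the days 3, and NRCWE-001 54 µg and NRCWE-002 54 µg on day 1 and NRCWE-001 18 µg on day 28 had 1 each. With normexp on all spots, added later, 162 µg on day 1 had 1 for either particle, and without the 4 arrays that correlated least the NRCWE-001 dose test of day 28 had 2. Leaving out 1 array gave 0 to 3 at NRCWE-001 162 µg on day 1, 0 to 2 there on day 28, 0 to 2 in both NRCWE-001 dose tests, 1 at NRCWE-002 162 µg and in its dose test on day 1, 0 to 1 between particles on day 28 and 1 to 2 between the days. Over the whole table, slide as a block moved the genes called from 102 to 772 at NRCWE-001 162 µg and from 105 to 345 at NRCWE-002 162 µg on day 1, from 837 to 4 between particles on day 28 and from 1870 to 17 between the days. The cause was not tested. No paired analysis was possible because the replicate numbers only follow the order of the samples, and the slides that arrays share were used as a block instead.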
